A study of Mus musculus with 13 samples.

Results

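Long intergenic noncoding RNAs (lincRNAs) are spliced or unspliced transcripts from loci between protein-coding genes that carry no recognised long open reading frame. Those described here are the 118 genes of the deposited count table that its annotation types as lincRNA and that gathered at least 300 reads over all 13 libraries, with the snoRNA host genes of the Snhg family, Gas5 and Zfas1 left out. The table lists 54532 genes, 5559 of them lincRNAs, of which 1736 had at least 1 read, and the host rule removed 3 genes that had passed the read minimum. The members were thus chosen by their total reads, and their abundance is a description. The 3 members just inside the limit were C330002G04Rik with 302 reads, 2210039B01Rik with 308 and 1700080G11Rik with 311. The 3 lincRNAs just outside it were 9330175E14Rik with 295 reads, 1700086O06Rik with 289 and E130102H24Rik with 287. All 118 also passed the filter on low counts, but 48 of them would have stayed under 300 reads without their highest group. A difference between groups was thus partly built into the choice of these 48.

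The livers came from wild-type C57 BL6 mice of 8 weeks. One group of 4 libraries, called pretreated here, received dmPGE2, a long-lasting analog of prostaglandin E2, at 300 µg/kg, 1 h before D-galactosamine (D-GalN, 500 mg/kg) and lipopolysaccharide (LPS, 5 µg/kg). The other groups had 3 libraries each and received D-GalN with LPS at these doses (GalN/LPS), dmPGE2 alone at 300 µg/kg, or saline. Tissue was taken after 6 h, and for dmPGE2 alone the labels record no interval before that. D-GalN depletes uridine nucleotides in hepatocytes and makes them sensitive to tumor necrosis factor released after LPS, so the pair is used as a model of acute liver failure. The series description speaks of AILI mice, whereas the sample labels give D-GalN and LPS, and table columns headed ALF are read here as GalN/LPS livers. The labels do not say that each library was its own animal, so p-values measure the spread between libraries.

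Libraries held 14829838 to 20777809 reads in genes. Alb, the gene of serum albumin, took 6.69 to 11.4% of them in pretreated and 7.29 to 8.38% in GalN/LPS livers. It took 5.66 to 6.16% in dmPGE2 and 7.10 to 8.35% in saline livers. The 9 matched hepatocyte markers summed to 147600 to 232800 CPM (CPM is a gene's read count scaled to library size, here with edgeR's TMM factors) in pretreated livers, 97210 to 139700 in GalN/LPS, 72300 to 77790 in dmPGE2 and 92000 to 104300 in saline livers. Markers of other cells moved with the groups as well: neutrophil markers summed to 277 to 433 CPM in pretreated livers, 712 to 950 in GalN/LPS livers, 6.15 to 10.1 in dmPGE2 livers and 5.18 to 17 in saline livers. In whole tissue, fewer cells of a type and less RNA per cell cannot be told apart. The lincRNAs together made up 0.166 to 0.212% of reads in pretreated livers, 0.237 to 0.353% in GalN/LPS, 0.135 to 0.150% in dmPGE2 and 0.139 to 0.144% in saline livers. Without Malat1 and Gm26917 these shares were 0.0767 to 0.0906% in pretreated, 0.0943 to 0.103% in GalN/LPS, 0.102 to 0.123% in dmPGE2 and 0.0990 to 0.109% in saline livers. TMM factors were 0.683 to 0.830 in pretreated libraries, against 0.904 to 1.28 in the other groups, so counts for pretreated livers are also given with scaling by library totals.

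Many lincRNAs act in the nucleus, where they hold protein bodies together or regulate the gene next to them, and others act in the cytoplasm by binding proteins or microRNAs. Because nuclear lincRNAs are often transcribed from the promoter region of a coding gene in the opposite direction, level changes of the pair can be read side by side. Of the 118 lincRNAs, 77 had a protein-coding gene within 20 kb, 28 of them in divergent orientation and 36 on the same strand. The spans of 10 of the 118 overlapped a coding gene, and 24 shared exon bases with another gene. RefSeq types 6 members as protein-coding and 2 as pseudogenes. Gene length of the 118 in the table ran from 317 to 20771 bases with a median of 1782. Names alone show how little is annotated: 58 were named Gm and 41 ended in Rik.

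Promoter windows are shown for 3 divergent coding partners that fell together with their lincRNA and for AW112010, an abundant lincRNA that rose with injury. They are RefSeq sequences of GRCm38.p6, from 250 bases before to 50 bases after the annotated start, 5′ to 3′ on the gene's strand. Capitals mark matches on either strand to the NF-kB motif GGGNNNTTCC, GAS TTCNNNGAA, ISRE GAAANNGAAA, AP-1 TGANTCA, the CRE core TGACG, the E-box CACGTG, the CCAAT box and the GC box GGGCGG.
Insig1 (chr5:28071162-28071461, plus strand): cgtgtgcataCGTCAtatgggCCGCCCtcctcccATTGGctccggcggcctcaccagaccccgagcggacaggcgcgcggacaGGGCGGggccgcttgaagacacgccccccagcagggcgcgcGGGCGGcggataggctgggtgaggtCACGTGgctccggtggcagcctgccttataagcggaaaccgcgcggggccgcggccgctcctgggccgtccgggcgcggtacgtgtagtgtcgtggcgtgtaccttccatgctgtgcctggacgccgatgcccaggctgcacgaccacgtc
Pik3r2 (chr8:70776663-70776962, minus strand): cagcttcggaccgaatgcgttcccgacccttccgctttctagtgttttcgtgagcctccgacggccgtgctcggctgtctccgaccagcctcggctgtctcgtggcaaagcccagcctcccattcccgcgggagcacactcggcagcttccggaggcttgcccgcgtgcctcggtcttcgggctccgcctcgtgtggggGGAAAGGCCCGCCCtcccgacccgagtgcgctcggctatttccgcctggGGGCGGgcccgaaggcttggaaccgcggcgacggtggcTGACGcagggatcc
Edem3 (chr1:151755124-151755423, plus strand): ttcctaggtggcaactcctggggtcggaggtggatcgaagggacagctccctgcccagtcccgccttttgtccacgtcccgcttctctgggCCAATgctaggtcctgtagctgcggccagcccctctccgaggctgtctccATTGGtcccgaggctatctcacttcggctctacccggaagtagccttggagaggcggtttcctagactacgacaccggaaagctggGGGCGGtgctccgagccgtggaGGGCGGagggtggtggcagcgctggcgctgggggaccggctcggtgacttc
AW112010 (chr19:11050517-11050816, minus strand): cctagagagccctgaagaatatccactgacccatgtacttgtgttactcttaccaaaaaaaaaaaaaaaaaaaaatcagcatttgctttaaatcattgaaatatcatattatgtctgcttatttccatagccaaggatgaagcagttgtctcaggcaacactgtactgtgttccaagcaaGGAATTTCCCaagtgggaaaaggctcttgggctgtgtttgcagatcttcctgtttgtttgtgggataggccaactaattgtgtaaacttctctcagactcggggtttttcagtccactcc
The Insig1 window held 3 GC boxes, a CCAAT box, an E-box and a CRE core, and the Edem3 window 2 GC boxes and 2 CCAAT boxes. In the Pik3r2 window a match to the NF-kB motif overlapped a GC box, a further GC box lay across the start, and a CRE core followed it. AW112010 held 1 match, to the NF-kB motif, 70 bases before its start. Among all 32851 RefSeq windows of this length 35.7% held a GC box, 37.4% a CCAAT box, 20.8% a CRE core, 7.15% an E-box, 5.56% the NF-kB motif, 8.30% GAS, 7.81% AP-1 and 3.44% ISRE. A match says only that the letters are there. The windows of the coding partners had a G and C content of 65.3 to 71.7%, against 40.0% for AW112010.

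The most abundant lincRNAs per length were AW112010 with a mean FPKM (the deposited level per gene length) of 145 over all libraries, Gm10076 with 108, Gm26917 with 106 and Malat1 with 86.1. Next came Gm30262, 1810008I18Rik, Gm48633 and 1810058I24Rik, between 22.0 and 18.2 FPKM. A pair of these names needs care. Gm10076 matched the mRNA of the ribosomal protein gene Rpl41 at 99.5% identity over 383 of its 384 bases, and RefSeq types it as a pseudogene. Its transcript holds the whole Rpl41 coding stretch of 78 bases without a mismatch, shown because reads of either gene fit both:
Rpl41 and Gm10076: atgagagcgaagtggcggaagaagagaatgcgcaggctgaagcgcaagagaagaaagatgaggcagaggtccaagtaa
Gm10076 had 124, 58.5, 21.3 and 60.7 CPM in pretreated livers, 37.5, 8.00 and 13.4 in GalN/LPS livers, 8.65, 109 and 5.39 in dmPGE2 livers and 14.2, 22.8 and 56.8 in saline livers. Each group overlapped every other. Rpl41 itself had 753, 775, 866 and 617 CPM in pretreated, 603, 738 and 700.4 in GalN/LPS, 389, 234 and 392 in dmPGE2 and 378, 371 and 311 in saline livers. Gm26917 (chr17:39843013-39846341) ends 12 bases before Rn18s-rs5, a RefSeq gene named for 18S ribosomal RNA.

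With GalN/LPS, 20 of the 118 lincRNAs rose and 36 fell relative to saline. Of the lincRNAs 16.9% were thus called higher and 30.5% lower (47.5% in all), against 27.4% and 25.6% of all 14280 tested genes (52.9% in all). Values of the 2 groups did not overlap for 54 lincRNAs, 45.8%, against 59.7% of all tested genes. The median log2 fold change was -0.17 for the lincRNAs and 0.03 for all tested genes. Among protein-coding genes that also had 300 reads or more, 26.2% were called higher and 29.9% lower. Among such antisense genes 9.88% were called higher and 30.9% lower, so the share of lincRNAs called lower was near that of both classes. Members that rose included the nuclear RNAs Malat1 and Neat1, AW112010 and Gm26917, and members that fell included the poorly annotated Gm11752, Gm26608 and Gm17753. A call means an adjusted p under 0.05 in edgeR's quasi-likelihood test, with Benjamini-Hochberg adjustment over all tested genes. With library totals 17 of the 20 and all 36 remained called in the same direction. In that scaling 14.4% of the lincRNAs were called higher and 35.6% lower, against 21.5% and 30.0% of all tested genes.

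**Figure D1:**
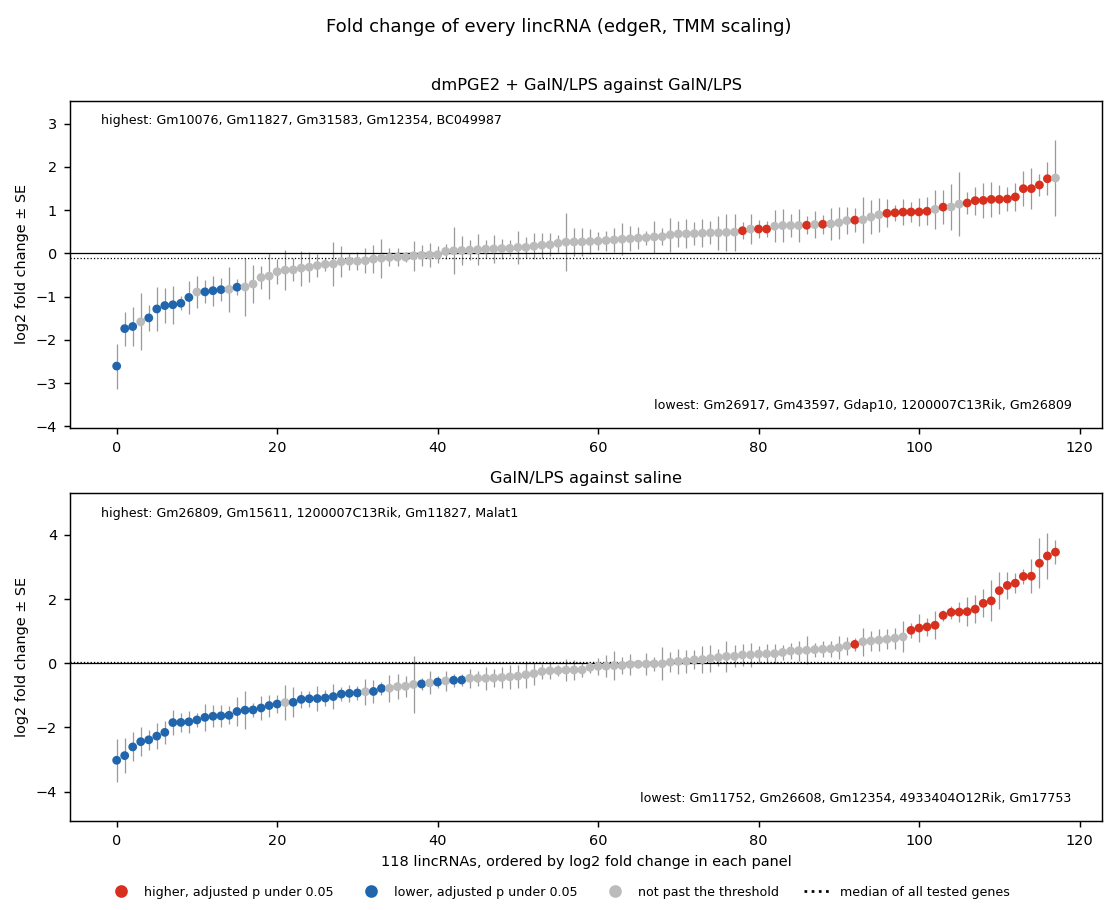
Log2 fold change with its SE (y axis) of each of the 118 lincRNAs, ordered along the x axis by value, in pretreated against GalN/LPS livers (upper panel) and GalN/LPS against saline livers (lower panel). Red and blue points passed an adjusted p of 0.05, 24 and 13 of them in the upper panel and 20 and 36 in the lower, and the dotted line is the median of all tested genes.

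Malat1, which sits in nuclear speckles and is known to affect splicing factors, had 1336, 868, 1187 and 1426 CPM in pretreated livers, 864, 1026 and 554 CPM in GalN/LPS livers, 90.9, 111 and 102 CPM in dmPGE2 livers and 126, 114 and 134 CPM in saline livers. All 7 libraries with GalN/LPS lay above all 6 without it. Its log2 fold change was 2.71 ± 0.23 (SE), edgeR adjusted p = 9.02e-08 in GalN/LPS against saline livers. Neat1, the scaffold RNA of paraspeckles, had 194, 118, 68.8 and 109 CPM in pretreated, 97.7, 161 and 118 in GalN/LPS, 39.3, 61.5 and 73.9 in dmPGE2 and 47.1, 39.8 and 37.7 in saline livers. GalN/LPS livers did not overlap saline livers, whereas the lowest pretreated liver lay within the range of dmPGE2 livers. The log2 fold change of Neat1 in GalN/LPS against saline livers was 1.59 ± 0.30 (SE), edgeR adjusted p = 3.71e-04.

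AW112010, which mouse macrophages translate from an open reading frame without an AUG start, had 153, 128, 153 and 150.2 CPM in pretreated livers, 175, 187 and 159 in GalN/LPS livers, 46.3, 71.5 and 52.5 in dmPGE2 livers and 63.5, 69.9 and 52.1 in saline livers. The 3 GalN/LPS livers stood above all saline livers, with a log2 fold change of 1.49 ± 0.17 (SE), edgeR adjusted p = 1.66e-06, and the pretreated livers lay in between. The neutrophil, monocyte, and Kupffer cell and macrophage marker lists rose in the same comparison in 10 of 10, 9 of 9 and 10 of 11 tested genes, with median log2 fold changes of 6.76, 5.39 and 1.71. Sinusoidal endothelial, stellate cell and fibroblast, and T and NK cell lists rose too, in 11 of 11, 9 of 10 and 8 of 10. B cell, cholangiocyte, and erythroid and platelet lists rose in 4 of 7, 6 of 6 and 8 of 8. Hepatocyte markers rose in 1 of 9. In pretreated against GalN/LPS livers neutrophil, monocyte, and Kupffer cell and macrophage lists fell in 10 of 10, 7 of 9 and 11 of 11. AW112010 had -0.25 there and was not called. The part of any cell type in its rise with GalN/LPS was not tested. Of 6 tested genes on a list of inflammation-linked noncoding RNAs, AW112010 among them, 4 rose with GalN/LPS and none was called lower, with a median of 2.09. The others that rose were F630028O10Rik, Mirt1 and Gm14005, by 4.20, 3.37 and 2.69 on the log2 scale, whereas Mirt2 had -0.60 and Gm20703 -0.24, neither called.

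Gm26809, a rare lincRNA, had 3.25, 8.26, 5.08 and 6.59 CPM in pretreated livers, 24.3, 10.3 and 14.4 CPM in GalN/LPS livers, 3.03, 3.02 and 2.32 CPM in dmPGE2 livers and 1.93, 1.49 and 1.01 CPM in saline livers. No GalN/LPS liver overlapped any other group, and the log2 fold change against saline was 3.46 ± 0.37 (SE), edgeR adjusted p = 1.03e-06. Near-identical copies in 4 genes, among them AC160336.1, cover 73.2% of the Gm26809 transcript. It also shares 28.7% of its exon bases with Gm20186 on the other strand. Over all libraries Gm26809 had 1486 reads, AC160336.1 had 42 and Gm20186 had 65. How reads that fit more than 1 of these genes were counted is not known. Gm15611, 1200007C13Rik, Gm11827 and Gm11707 rose by 3.34, 3.12, 2.71 and 2.50. Each of these 4 averaged under 1 CPM in saline livers and would have stayed under 300 reads without its highest group, so a difference between groups was built into their choice. The calls of Gm26809, Gm15611, 1200007C13Rik, Gm11827 and Gm11707, like those of Malat1, Neat1 and AW112010, held under every alternative setting and every left-out library.

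**Figure D2:**
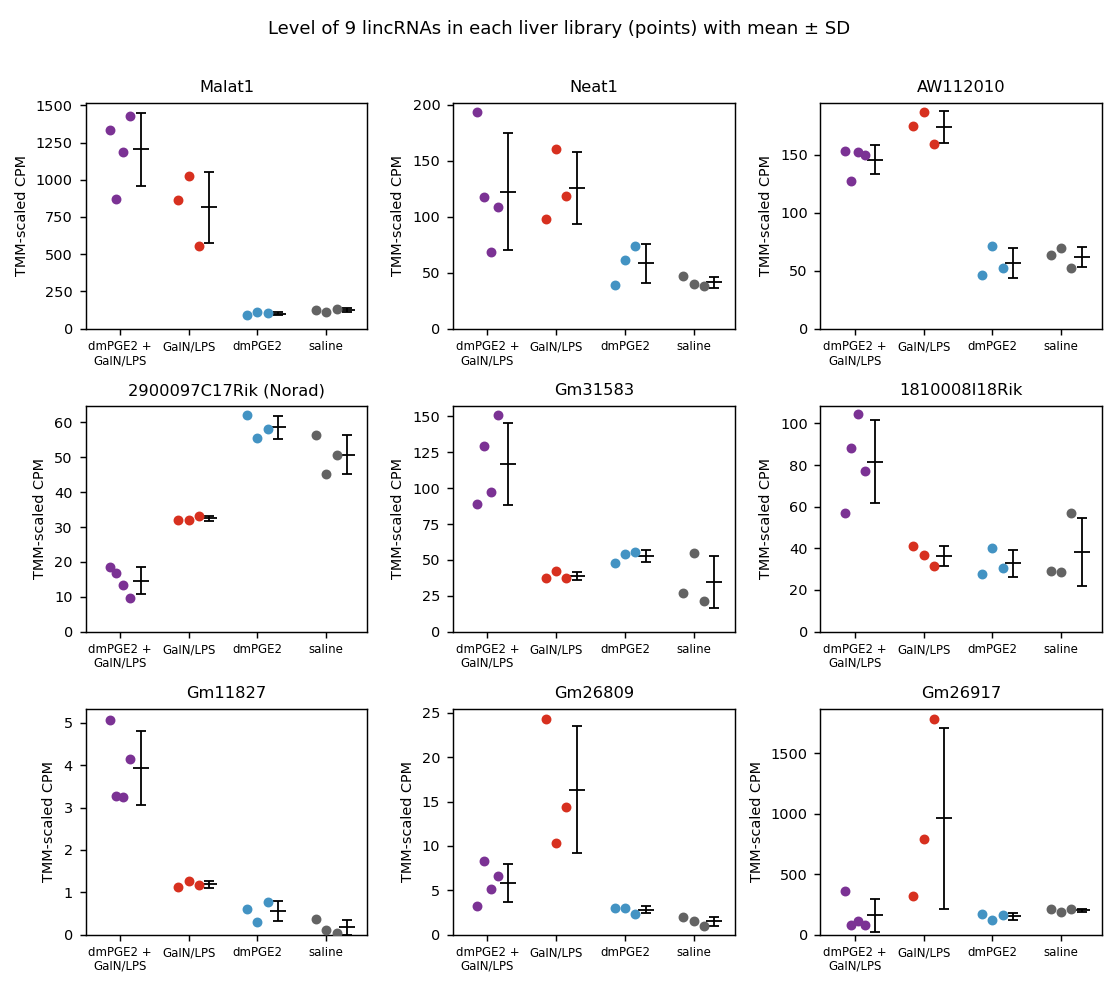
TMM-scaled CPM (y axis, linear) of 9 lincRNAs in each library, with groups along the x axis and the mean ± SD beside each group (n = 4 pretreated, 3 in each other group). Malat1, Neat1 and AW112010 were high in both groups given GalN/LPS, and 2900097C17Rik was lowest in pretreated livers. Gm31583, 1810008I18Rik and Gm11827 had their highest group means there, and 1 GalN/LPS library stood apart for Gm26917.

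Among the 36 that fell, Gm11752 had 0.714, 0.956, 0.250 and 0 CPM in pretreated livers, 0.0530, 0.315 and 0.307 in GalN/LPS, 3.07, 3.19 and 2.23 in dmPGE2 and 1.70, 2.49 and 1.39 in saline livers. Every GalN/LPS liver was below every saline liver, at a log2 fold change of -3.02 ± 0.66 (SE), edgeR adjusted p = 0.00115, but it overlaps the coding gene Tbc1d16 on the other strand. Gm11752 shares no exon bases with another gene. No source used here gives the strand setting of the read counting, so it is not known whether unspliced Tbc1d16 reads were counted for Gm11752. Gm11752, with 344 reads, would also have stayed under 300 without its highest group, so a difference between groups was built into its choice. Gm17753 had 1.11, 2.66, 3.25 and 2.87 CPM in pretreated livers, 3.55, 1.39 and 1.89 in GalN/LPS livers, 12.0, 13.7 and 15.7 in dmPGE2 livers and 11.0, 11.9 and 13.2 in saline livers. The livers with GalN/LPS and those without it did not overlap, and the fold change in GalN/LPS against saline livers was -2.39 ± 0.31 (SE), edgeR adjusted p = 1.05e-05. Gm12354, 4933404O12Rik and BC049987 fell by 2.61, 2.45 and 2.27 on the log2 scale. Gm12354, with 324 reads, would also have stayed under 300 without its highest group, so the same limit holds for it. The abundant Gm48633 and Gm30262 fell less, by 1.77 and 0.96.

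Among members with a known role, 1810058I24Rik encodes the mitochondrial micropeptide Stmp1, and RefSeq types it as protein-coding. It had 36.2, 32.1, 47.9 and 60.8 CPM in pretreated livers, 36.9, 44.9 and 26.2 in GalN/LPS, 46.5, 49.2 and 43.7 in dmPGE2 and 76.4, 101 and 55.2 in saline livers. Every GalN/LPS liver was below every saline liver, at -1.11 ± 0.25 (SE), edgeR adjusted p = 0.00135. Pretreated livers overlapped saline livers but were also called lower than them, at -0.81. Against GalN/LPS livers they had 0.30, not called. C730036E19Rik, known as lncLSTR and described in mouse liver as a regulator of plasma triglycerides, had 13.2, 9.90, 13.4 and 14.4 CPM in pretreated livers, 6.47, 10.3 and 9.06 in GalN/LPS livers, 6.71, 9.16 and 9.70 in dmPGE2 livers and 11.7, 11.6 and 13.9 in saline livers. It was lower in GalN/LPS than in saline livers by a log2 fold change of -0.53 ± 0.20 (SE), edgeR adjusted p = 0.0341, and the call was lost without saline 3 or GalN/LPS 1, the highest saline and the lowest GalN/LPS liver. Jpx, which promotes Xist expression in mouse cells, fell by 0.88 in GalN/LPS livers (edgeR adjusted p = 0.0440), a call lost in 7 of 15 alternatives, among them leaving out saline 1, saline 3 or GalN/LPS 1. With 362 reads Jpx would have stayed under 300 without its highest group, so a difference between groups was built into its choice. Pvt1, the neighbor of Myc, and Epb41l4aos did not pass the threshold in any comparison, with log2 fold changes of -0.07 and 0.34 here.

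2900097C17Rik is the mouse ortholog of NORAD, a cytoplasmic RNA that binds Pumilio proteins and is known for its part in genome stability. It had 18.5, 16.7, 13.3 and 9.72 CPM in pretreated livers, 32.1, 32.1 and 33.2 in GalN/LPS livers, 62.1, 55.5 and 58.1 in dmPGE2 livers and 56.5, 45.3 and 50.6 in saline livers. The groups stood in steps without overlap, pretreated livers lowest, GalN/LPS livers next, and saline and dmPGE2 livers highest and overlapping each other. Its log2 fold change was -1.15 ± 0.17 (SE), edgeR adjusted p = 7.81e-05 in pretreated against GalN/LPS livers and -0.65 ± 0.17 (SE), edgeR adjusted p = 0.00513 in GalN/LPS against saline livers. The fall with pretreatment held under every alternative and every left-out library and was -1.65 with library totals. A copy covers 51.6% of its transcript, Gm7292, which had 13 reads in all libraries together.

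In pretreated against GalN/LPS livers, 24 lincRNAs rose and 13 fell, 20.3% and 11.0% of the 118, where 24.4% and 30.1% of all tested genes were called higher and lower. In either direction 31.4% of the lincRNAs and 54.5% of all tested genes were called, and groups did not overlap for 27 lincRNAs, 22.9%, against 50.4% of all tested genes. Their median log2 fold change was 0.27 and that of all tested genes -0.10. At 2-fold or more, 12 lincRNAs (10.2%) were called higher and 9 (7.63%) lower, against 3.63% and 18.2% of all tested genes. Among protein-coding genes that also had 300 reads or more, 61.8% were called, and among such antisense genes 23.5%. Scaling decided most of the rises: with library totals 4 lincRNAs were called higher and 28 lower, 3.39% and 23.7%, against 4.33% and 47.6% of all tested genes, whose median moved to -0.61. Of the 24 rises 4 remained called with library totals, and all 13 falls did. Leaving out GalN/LPS 3 left 13 lincRNAs called higher.

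**Figure D3:**
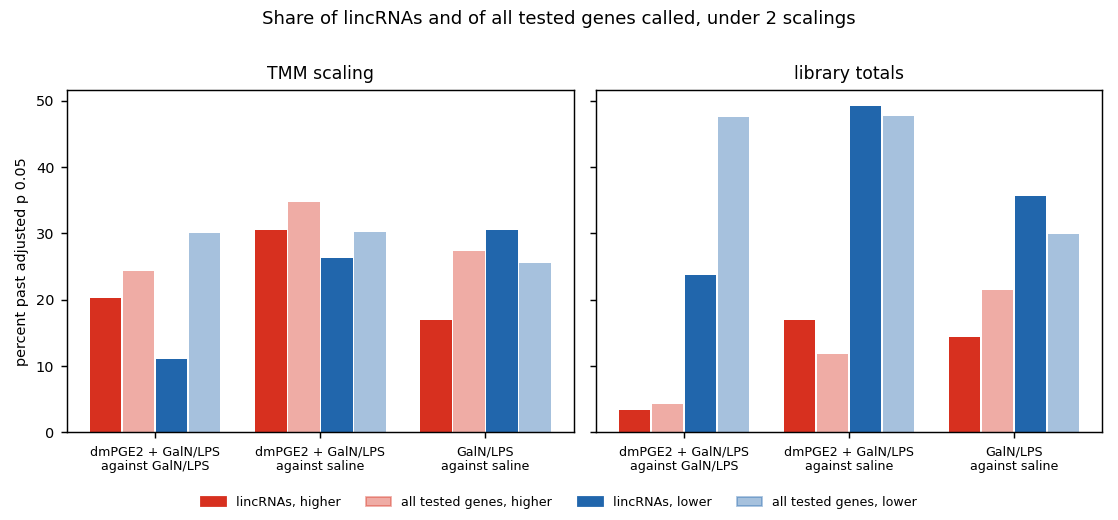
Percent of the 118 lincRNAs (dark bars) and of all 14280 tested genes (light bars) called higher (red) or lower (blue) at an adjusted p under 0.05 in 3 comparisons (x axis), with TMM scaling (left) and library totals (right). In pretreated against GalN/LPS livers 24 lincRNAs were higher and 13 lower with TMM, against 4 higher and 28 lower with library totals.

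The 4 lincRNAs that rose with pretreatment under both scalings, every other alternative and every left-out library were Gm31583, 1810008I18Rik, Gm2814 and Gm11827. Gm31583 (chr16) had 89.3, 129, 97.3 and 151 CPM in pretreated livers, 37.5, 42.0 and 37.4 in GalN/LPS livers, 47.8, 54.3 and 55.5 in dmPGE2 livers and 26.7, 55.0 and 21.4 in saline livers. All pretreated livers lay above every library of the other groups. Its log2 fold change was 1.58 ± 0.26 (SE), edgeR adjusted p = 2.10e-04 against GalN/LPS livers, and 1.08 with library totals.

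1810008I18Rik, one of the most abundant lincRNAs per length, had 56.9, 88.3, 104 and 77.2 CPM in pretreated livers, 40.9, 37.0 and 31.3 in GalN/LPS livers, 27.8, 40.0 and 30.4 in dmPGE2 livers and 29.1, 28.8 and 57.0 in saline livers. Pretreated and GalN/LPS livers did not overlap, but saline 3 lay at the level of the lowest pretreated liver. The log2 fold change was 1.17 ± 0.24 (SE), edgeR adjusted p = 0.00115, and 0.66 with library totals. Gm11827, much rarer, had 5.08, 3.28, 3.25 and 4.14 CPM in pretreated livers, 1.11, 1.26 and 1.18 in GalN/LPS livers, 0.599, 0.290 and 0.759 in dmPGE2 livers and 0.367, 0.0996 and 0.0480 in saline livers. It rose in GalN/LPS livers and was higher again in pretreated livers, with a log2 fold change of 1.73 ± 0.38 (SE), edgeR adjusted p = 0.00157 between them and 1.21 with library totals. With 314 reads Gm11827 would have stayed under 300 without its highest group, so a difference between groups was built into its choice. Gm2814 rose by 1.31, and by 0.79 with library totals.

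The 9 tested hepatocyte markers were also all called higher in pretreated than in GalN/LPS livers, with a median log2 fold change of 0.81, and their part in these rises was not tested. With library totals 2 of the 9 were called higher and the median was 0.30. Malat1 was called higher as well, by 0.56 ± 0.20 (SE), edgeR adjusted p = 0.0284, but its pretreated and GalN/LPS livers overlapped and the call was lost in 8 of 16 alternatives. It was 0.06 with library totals and 0.34 without GalN/LPS 3, and the call was also lost without GalN/LPS 1, pretreated 1 or pretreated 4. The rise of C730036E19Rik, 0.56, was lost with library totals and without GalN/LPS 1 or pretreated 4. BC049987, which had 10.2, 8.46, 3.42 and 3.13 CPM in pretreated, 2.55, 2.65 and 1.59 in GalN/LPS, 18.8, 26.1 and 14.1 in dmPGE2 and 14.0, 7.96 and 10.7 in saline livers, rose by 1.50 with TMM scaling. With library totals the value was 1.01 and was not called.

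Of the 13 lincRNAs that fell with pretreatment, 7 kept their call under every alternative and left-out library. Besides 2900097C17Rik these were Gm26917, Gm26809, Gm43597, Gdap10, Gm11707 and AU020206. Gm43597 had 0.714, 0.683, 0.667 and 0.423 CPM in pretreated livers, 2.44, 1.70 and 2.15 in GalN/LPS, 0.936, 0.812 and 1.43 in dmPGE2 and 1.15, 2.89 and 1.25 in saline livers. Pretreated livers lay below every other library, and the log2 fold change against GalN/LPS livers was -1.74 ± 0.40 (SE), edgeR adjusted p = 0.00193. Gdap10 had 0.873, 0.614, 1.58 and 1.01 CPM in pretreated livers, 3.66, 2.83 and 3.33 in GalN/LPS livers, 1.91, 1.28 and 0.970 in dmPGE2 livers and 1.79, 0.299 and 1.10 in saline livers. Only GalN/LPS livers stood apart, above all others, and the fold change with pretreatment was -1.69 ± 0.44 (SE), edgeR adjusted p = 0.00484. Gm43597, with 329 reads, and Gdap10, with 394, would have stayed under 300 without their highest group. A difference between groups was thus built into their choice. Gdap10 overlaps Nampt, the gene of an enzyme of NAD synthesis, on the same strand, and Nampt moved with it, by 0.59 in GalN/LPS against saline livers (0.45 and not called with library totals) and -1.03 in pretreated against GalN/LPS livers. Gdap10 and Nampt share no exon bases, but whether unspliced Nampt reads were counted for Gdap10 is not known.

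Gm26809 fell by 1.49 and Gm11707 by 0.89 on the log2 scale in pretreated against GalN/LPS livers, both of which had risen with GalN/LPS. Each of the sinusoidal endothelial, and Kupffer cell and macrophage, marker lists fell in 11 of 11 tested genes in the same comparison, with medians of -1.46 and -1.01. Neutrophil, B cell, monocyte, and stellate cell and fibroblast lists fell in 10 of 10, 7 of 7, 7 of 9 and 9 of 10. T and NK cell, cholangiocyte, and erythroid and platelet lists fell in 6 of 10, 4 of 6 and 5 of 8. The part of these cell types was not tested. Gm26917 was the most uneven member: it had 359.9, 81.0, 111 and 79.4 CPM in pretreated livers, 315, 788 and 1781 in GalN/LPS livers, 170.2, 119.5 and 164 in dmPGE2 livers and 209, 184 and 208 in saline livers. GalN/LPS livers lay above saline livers, at a log2 fold change of 2.26 ± 0.57 (SE), edgeR adjusted p = 0.00332, which was 1.35 without GalN/LPS 3. GalN/LPS 3 alone held 34793 of its reads, 55.7% of all lincRNA reads in that library, and pretreated 1 lay within the GalN/LPS range. The log2 fold change with pretreatment was -2.61 ± 0.52 (SE), edgeR adjusted p = 8.34e-04, and -1.81 without GalN/LPS 3. Genes typed as ribosomal RNA took 0.102 to 0.246% of reads in pretreated, 0.113 to 0.210% in GalN/LPS, 0.0446 to 0.155% in dmPGE2 and 0.0915 to 0.118% in saline libraries. The library with the highest such share was pretreated 2, where Gm26917 was at 81.0 CPM, and GalN/LPS 3 was second.

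Against saline, 36 lincRNAs were higher and 31 lower in pretreated livers, where 34.8% and 30.2% of all tested genes were called higher and lower (56.8% of the lincRNAs and 65% of all tested genes in either direction). Groups did not overlap for 62 lincRNAs, 52.5%, against 61.8% of all tested genes. With library totals 20 were higher and 58 lower, 16.9% and 49.2%, against 11.8% and 47.6% of all tested genes. All of these 20, among them Malat1, Neat1, AW112010, Gm31583, Gm2814, Gm15611, Gm31333, Gm48199, Gm36041 and Gm11827, were also among the 36. The steepest rise was that of Gm11827, at a log2 fold change of 4.44 ± 0.48 (SE), edgeR adjusted p = 1.16e-06. Gm31333, Gm48199 and Gm36041 were higher by 2.88, 2.72 and 2.50. The steepest falls were those of 4933404O12Rik at -2.97, 5730414N17Rik at -2.86, 9030616G12Rik at -2.66 and Gm26608 at -2.62. Gm11827, with 314 reads, Gm48199, with 385, and Gm26608, with 319, would have stayed under 300 without their highest group. A difference between groups was thus built into their choice.

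Reading the 3 comparisons together by their calls with TMM scaling, which share groups, 23 lincRNAs were lower than saline with and without pretreatment and not called between the injured groups. Another 10, Malat1 not among them, were higher than saline in both and not called between them. Another 10 were called higher in pretreated livers than in both GalN/LPS and saline livers and not called between GalN/LPS and saline livers. In 5 the calls with GalN/LPS and with pretreatment ran in opposite directions and the pretreated level was not called different from saline, as for Gdap10 and BC049987. With library totals Gdap10 kept these calls, whereas BC049987 was not called against GalN/LPS livers and was lower than in saline livers, at -1.43. No call was made in any of the 3 comparisons for 32 lincRNAs. These patterns were not counted among all tested genes, so the counts only describe the lincRNAs.

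**Figure D4:**
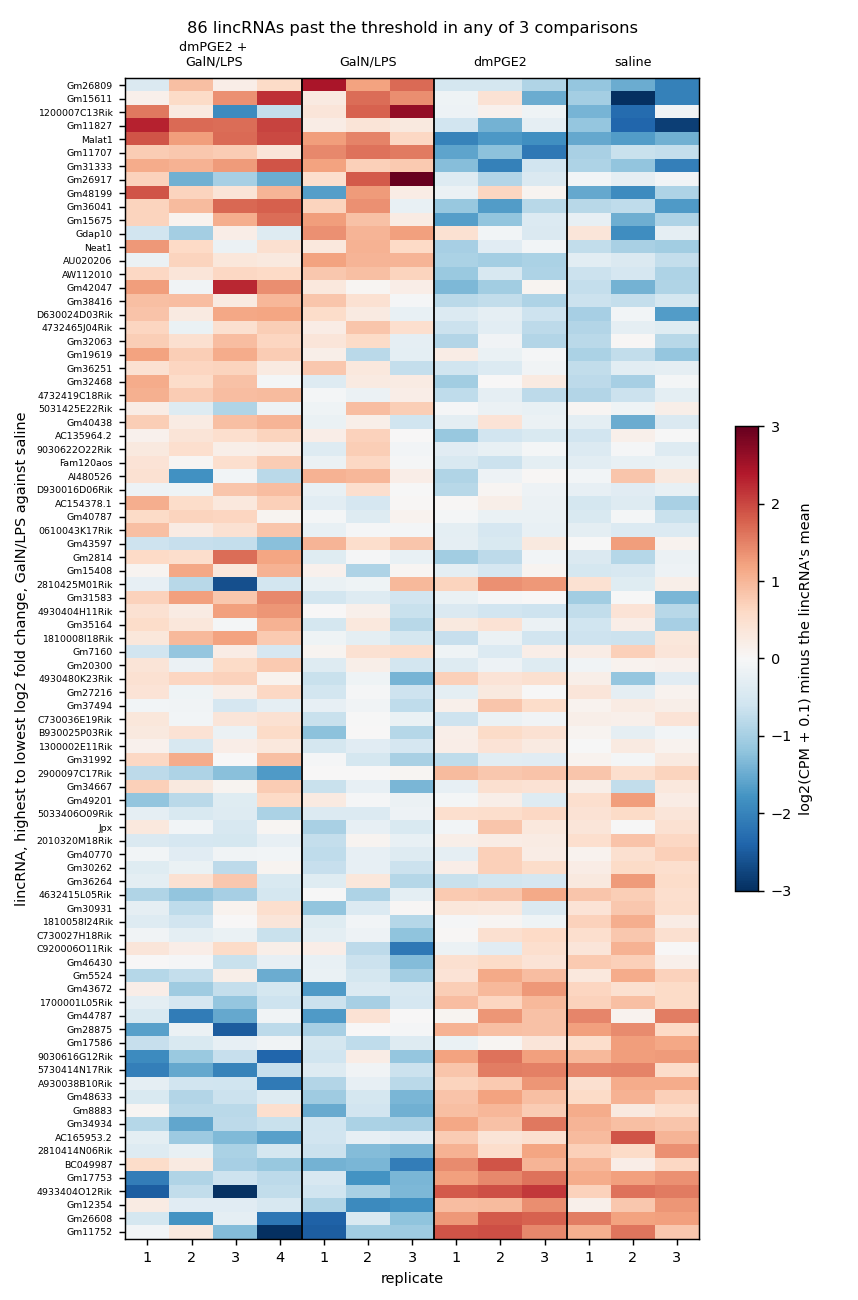
Each row is 1 of the 86 lincRNAs called in at least 1 of 3 comparisons, each column 1 library, and the color is log2(CPM + 0.1) minus the lincRNA's mean over libraries, clipped at 3 in both directions. Rows run from the highest to the lowest log2 fold change in GalN/LPS against saline livers, from Gm26809 at 3.46 to Gm11752 at -3.02, and no lincRNA was called between the dmPGE2 and saline columns.

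With dmPGE2 alone, no lincRNA was called against saline in edgeR's test, and 0% of all tested genes were. At an unadjusted p under 0.05 there were 24 lincRNAs (20.3%) and 1990 of 14280 genes (13.9%). DESeq2 called 1 lincRNA higher and 1 lower of the 99 it gave an adjusted p, 1.01% each, against 1.19% and 1.24% of 11570 genes. Without the low-count filter edgeR called 5 lincRNAs higher and 2 lower, 4.24% and 1.69%, against 1.08% and 0.638% of 26810 genes. Values of the 3 dmPGE2 and 3 saline livers did not overlap for 33 lincRNAs, 28.0%, against 26.3% of all tested genes. The smallest adjusted p among the lincRNAs was that of 1700020I14Rik, the mouse Cyrano RNA that drives decay of the microRNA miR-7. It had 35.1, 37.8, 35.8 and 42.0 CPM in pretreated livers, 38.5, 44.8 and 36.6 in GalN/LPS, 51.8, 62.9 and 56.8 in dmPGE2 and 39.0, 40.6 and 42.8 in saline livers. The dmPGE2 livers lay above all others, at a log2 fold change of 0.48 ± 0.12 (SE), edgeR adjusted p = 0.107 against saline.

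The effect of dmPGE2 differed between livers with and without GalN/LPS for 18 lincRNAs, 12 with a higher and 6 with a lower value under GalN/LPS, where 15.4% and 19.6% of all tested genes were called (15.3% of the lincRNAs and 35% of all tested genes in either direction). This is the interaction, the log2 fold change of pretreated over GalN/LPS livers minus that of dmPGE2 over saline livers. With library totals none of the 12 and all 6 were still called, and 0% of the lincRNAs were higher and 17.8% lower, against 1.28% and 36.4% of all tested genes. The pair that held in every alternative and left-out library was 2900097C17Rik, at -1.36 ± 0.24 (SE), edgeR adjusted p = 0.00134, and Gm26809, at -2.40 ± 0.48 (SE), edgeR adjusted p = 0.00273. For 2900097C17Rik dmPGE2 went with a fall under GalN/LPS and with 0.21 without it. Leaving out GalN/LPS 3, GalN/LPS 1 or dmPGE2 1 cut the 12 to 4, 7 and 6.

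Fold changes of lincRNAs and their nearest coding gene were set side by side for the 71 pairs within 20 kb whose coding gene was tested. In GalN/LPS against saline livers both genes of 22 pairs were called, 15 in the same direction (3 higher, 12 lower) and 7 in opposite directions. In pretreated against GalN/LPS livers both were called in 13 pairs, and all 13 moved in the same direction (3 higher, 10 lower). With library totals both were called in 23 pairs in the first comparison, 15 in the same direction, and in 15 pairs in the second, all lower. In that scaling 47.6% of all tested genes were called lower in the second comparison and 4.33% higher. Among the 17 divergent pairs whose starts lie within 1 kb, both were called in 4 pairs in the first comparison and 4 in the second, each time in the same direction. In the same 71 pairs 39 and 50 of the coding genes were called in these comparisons, and 36 and 18 of the lincRNAs. In pretreated against saline livers both were called in 31 pairs, 18 in the same direction and 13 in opposite directions. Of the divergent pairs within 1 kb both were called there in 6, 5 in the same direction and 1 in opposite directions. With library totals both were called there in 40 of the 71 pairs, 33 in the same direction and 7 in opposite directions. Agreement between genes that are not neighbours was not measured, so these counts are a description.

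**Figure D5:**
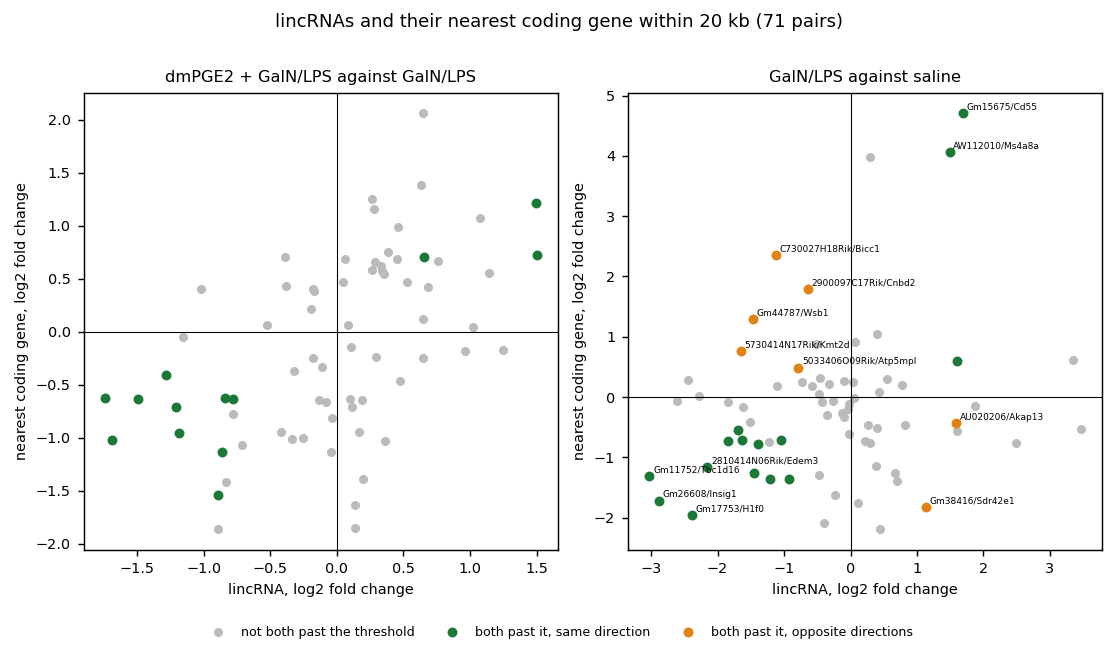
Log2 fold change of each lincRNA (x axis) and of its nearest coding gene (y axis) for 71 pairs within 20 kb, in pretreated against GalN/LPS livers (left) and GalN/LPS against saline livers (right). Green pairs were both called in the same direction, 13 on the left and 15 on the right, and orange pairs in opposite directions, 0 on the left and 7 on the right.

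Gm26608 starts 258 bases from Insig1, whose product retains the sterol sensor SCAP in the endoplasmic reticulum, in the divergent direction. Gm26608 had 0.476, 0.137, 0.583 and 0.0845 CPM in pretreated livers, 0.0530, 0.504 and 0.256 in GalN/LPS livers, 1.95, 2.84 and 2.70 in dmPGE2 livers and 2.29, 1.79 and 1.82 in saline livers. With 319 reads it would have stayed under 300 without its highest group, so a difference between groups was built into its choice. Insig1 had 212, 163, 140.5 and 142 CPM in pretreated livers, 58.2, 84.0 and 64.5 in GalN/LPS livers, 199, 133 and 178 in dmPGE2 livers and 195, 168 and 319.8 in saline livers. Both were lower in GalN/LPS than in saline livers, at -2.88 ± 0.55 (SE), edgeR adjusted p = 3.78e-04 for Gm26608 and -1.73 ± 0.24 (SE), edgeR adjusted p = 2.07e-05 for Insig1. In pretreated against GalN/LPS livers Insig1 was higher by 1.26 ± 0.23, called by edgeR, and Gm26608 had 0.26 ± 0.66, not called, and the difference between these fold changes was not tested.

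2010320M18Rik starts within the Pik3r2 window shown above, 102 bases from Pik3r2, the gene of a phosphoinositide 3-kinase regulatory subunit. It fell by 0.93 in GalN/LPS against saline livers and Pik3r2 by 1.35. 2810414N06Rik, 353 bases from Edem3, which helps remove misfolded glycoproteins, fell by 2.15, and Edem3 fell by 1.16. Gm43672 and Tbl1xr1, 510 bases apart, fell by 1.40 and 0.78 and complete the 4 pairs. With pretreatment the divergent pairs called were Gm7160 with Zcchc2, AI480526 with Setd1b and 5031425E22Rik with Kmt2e, all lower, and BC049987 with Treh, the gene of trehalase, both higher with TMM scaling and neither called with library totals. Gm7160, with 350 reads, would have stayed under 300 without its highest group, so a difference between groups was built into its choice. Setd1b and Kmt2e encode proteins of the histone H3 lysine methyltransferase family.

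In some pairs the fold changes differed in sign. 9030622O22Rik lies 2674 bases from Foxa2, a liver transcription factor, on the same strand. Foxa2 had 2.78, 1.64, 0.667 and 0.338 CPM in pretreated livers, 3.18, 6.74 and 5.12 in GalN/LPS livers, 32.2, 28.5 and 28.8 in dmPGE2 livers and 26.7, 15.5 and 25.9 in saline livers, lowest in pretreated and next lowest in GalN/LPS livers, without overlap. 9030622O22Rik had 7.22, 8.33, 6.67 and 6.85 CPM in pretreated livers, 4.46, 9.89 and 5.58 in GalN/LPS livers, 4.61, 5.04 and 5.65 in dmPGE2 livers and 4.40, 5.78 and 4.46 in saline livers. The log2 fold change in GalN/LPS against saline livers was 0.44 ± 0.25, not called, where that of Foxa2 was -2.19 ± 0.36, called. In pretreated against saline livers 9030622O22Rik was called higher, at 0.58, but had -0.09 with library totals. C730027H18Rik fell by 1.13 while Bicc1, 9037 bases away on the same strand, rose by 2.36. Gm38416 rose by 1.13 while Sdr42e1 fell by 1.83, and 2900097C17Rik fell while Cnbd2 rose by 1.79.

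Genes that build the bodies in which Malat1 and Neat1 reside were read from lists. Of 13 nuclear speckle proteins 2 rose and 1 fell in GalN/LPS against saline livers, with a median of -0.01, and 6 fell and none rose in pretreated against GalN/LPS livers, with a median of -0.33. Srrm2, a scaffold of speckles, rose by 0.82 with GalN/LPS, but with library totals it had 0.65, not called, and 1 speckle gene was higher and 3 lower. Srsf7, a splicing factor, fell by 0.78 with pretreatment. Of 21 paraspeckle proteins 1 rose and 7 fell with GalN/LPS, with a median of -0.10, and 4 rose and 7 fell with pretreatment, with a median of -0.03. Sfpq, which binds Neat1, fell by 0.91 with pretreatment, while Nono, its partner, rose by 0.37, which was -0.14 with library totals. Of 19 tested genes of the nuclear exosome, which degrades many noncoding RNAs, and its adaptors, 2 rose and 10 fell in GalN/LPS against saline livers, with a median of -0.51. Exosc4, a subunit of its core ring, fell by 1.47. With pretreatment 2 of the 19 rose and 7 fell relative to GalN/LPS livers, with a median of -0.08. For comparison the medians of all tested genes were 0.03 and -0.10. With library totals no gene of the 3 lists rose with pretreatment, and 12 of 13 speckle, 13 of 21 paraspeckle and 12 of 19 exosome genes fell, where the median of all tested genes was -0.61.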

How the data were processed

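The 13 RNA-seq libraries of mouse liver were made with the NEBNext Ultra RNA kit, per the labels' protocols. The authors deposited a table of read counts per gene and a separate table of FPKM (read counts scaled to gene length and library size). HISAT2, GRCm38 and mm10 are listed, per the submitters' processing notes. Neither labels nor headers name the program that counted reads, its strand setting or the gene annotation's release. Columns were matched to groups and replicate numbers by name. No pair of libraries was identical, and totals of 14829838 to 20777809 counts set the precision.

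Counts were tested in R 4.3.3 with edgeR 4.0.16 (quasi-likelihood F test, TMM factors, filterByExpr, all 13 libraries in 1 fit), with Benjamini-Hochberg adjustment over all 14280 genes kept, which held 99.9% of the counts. The code was tested on simulated data. Alternatives were library totals, RLE factors, no low-count filter, DESeq2 1.42.0, only the groups compared, a replicate block, limma 3.58.1 on log2(FPKM + 0.1) with and without the filter and on log2(FPKM + 1), and leaving out each library. Same-numbered libraries of different groups did not deviate together (18 pairs, Pearson's r from -0.315 to 0.087), so the numbers were not taken to pair them.

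The text names members with the largest fold changes among called members without overlap, members with a known role, the most abundant per length, and their nearest coding genes within 20 kb. The lincRNAs and gene lists were chosen with earlier results of these data known. Neighbours come from the coordinates of the deposited table, promoter windows from RefSeq (GRCm38.p6), and near-identical copies from blastn 2.17.0. Positions are given on GRCm38.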

Additional observations from a re-analysis of the deposited data

Results flagged for a closer look

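In 43 lincRNAs the 4 pretreated libraries were examined for 1 library far from the other 3, by Dixon's gap test at its 95% critical value. Chance gives about 1 such group in 20, and 5 were found. The lowest library stood apart for AW112010 at 128 CPM, for Gm11707 at 1.44 CPM and for Gm43597 at 0.423 CPM. The highest stood apart for Gm12354 at 1.19 CPM and for Gm26917 at 360 CPM.

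The log2 fold change of dmPGE2 pretreatment under GalN/LPS minus that of dmPGE2 alone passed edgeR's interaction test for 18 lincRNAs. It was higher for Gm36264 (1.90), Gm31992 (1.88), Gm2814 (1.43), Gm12718 (1.42), 1810008I18Rik (1.40), Gm16548 (1.20), Gm17586 (1.14), C730036E19Rik (1.11), 1810058I24Rik (1.03), Gm20300 (1.00), 4732419C18Rik (0.96) and Malat1 (0.87). None of these 12 was called with library totals. It was lower for 1700020I14Rik (-0.57), 2900097C17Rik (-1.36), Gdap10 (-2.07), Gm26917 (-2.20), 2810425M01Rik (-2.35) and Gm26809 (-2.40), all 6 of which were also called with library totals. Of these 6 only 2900097C17Rik and Gm26809 kept the call with every left-out library. Gm26917 had -1.41, not called, without GalN/LPS 3. Gm31992, with 339 reads, Gdap10, with 394, and 2810425M01Rik, with 335, would have stayed under 300 without their highest group. A difference between groups was thus built into their choice.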

How the results depend on the processing

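Counts of called lincRNAs moved most with the scaling. Library totals, in place of TMM, gave 4 higher and 28 lower in pretreated against GalN/LPS livers, 20 and 58 in pretreated against saline livers, and 0 and 21 for the interaction. They moved the median log2 fold change of all tested genes from -0.10 to -0.61, from 0.14 to -0.54 and from -0.11 to -0.69, and turned 9030622O22Rik (-0.09) and AC135964.2 (-0.12) in pretreated against saline livers. The cause was not tested. With the replicate block, although the numbers pair no samples, 15 were higher in pretreated against GalN/LPS livers and 7 for the interaction. Without the low-count filter 5 were higher and 2 lower with dmPGE2 alone, and 10 lower for the interaction. DESeq2 called 1 higher and 1 lower with dmPGE2 alone. On log2(FPKM + 0.1) without a filter 5 were higher for the interaction. Leaving out 1 library gave 13 to 30 higher in pretreated against GalN/LPS livers, lowest without GalN/LPS 3, and 4 to 15 higher for the interaction, with 4 without GalN/LPS 3, 6 without dmPGE2 1 and 7 without GalN/LPS 1. All other counts of these comparisons stayed within 1.5 times. Depth limits members near 1 CPM most.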
